A study of Rattus norvegicus with 4 samples.

Results

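The genes described here are 41 rat genes of protein folding and of the unfolded protein response: heat shock proteins and their co-chaperones in the cytosol and mitochondria, the heat shock factors, and the chaperones, stress sensors, response factors and degradation genes of the endoplasmic reticulum (ER). They were chosen by name, with no measured value in the rule, but with earlier results of these data known. Of the 41 genes, 38 had at least 1 probe that could be named on the array, out of 16500 named genes measured in all. No probe named for Hspa1b, Dnajb1 or Manf was found, and these 3 genes are not analysed here. The 38 genes carried 55 probes.

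Chaperones bind unfolded proteins and help them to fold, and heat shock factors raise their transcription when unfolded protein builds up in the cytosol. In the ER the same problem is sensed by 3 membrane proteins, encoded by Ern1 (IRE1), Eif2ak3 (PERK) and Atf6. They act through splicing of the Xbp1 mRNA, through reduced translation with induction of Atf4 and Ddit3 (CHOP), and through a cleaved ATF6 fragment, and together raise ER chaperones and the machinery of ER-associated degradation. Macrophages are secretory and phagocytic cells, and they are known to express many of these genes without added stress.

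All 4 samples belong to 1 group. They were cells of NR8383, a line established from rat lung lavage and used as a model of the alveolar macrophage, kept in DMEM with 10% fetal bovine serum for 4 h as the control condition labelled ALI, which the labels do not spell out. The cells had been through 20 passages, were grown with 15% serum, and were seeded for 48 h in 25 cm2 flasks. The labels call the 4 samples biological replicates but do not say whether they came from separate cultures, so the spread given here is that between these samples and may be partly technical. No treated group is included here, so no value below measures induction of a stress response.

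Total RNA (100 ng per sample, RNA integrity number above 7.5) was labelled with Cy3 and each sample was hybridised to 1 Agilent single-colour array. A level is the log2 of a probe's processed signal over the 75th percentile of the signals on its array, so that 0 means the brightness of the probe at that percentile. In replicate order that percentile was 83.4, 112, 126 and 167 intensity units, and the share of spots well above background ranged from 50.9% on replicate 1 to 58.9% on replicate 4. No spot was saturated. Of the macrophage markers, 10 of 11 were detected, among them Cd68, Csf1r, Spi1 and Pparg, and Marco was not. None of 4 epithelial, 4 fibroblast, 2 lymphocyte or 2 neutrophil markers was detected, while the endothelial markers Cdh5 and Pecam1 were and Kdr was not. Per the file headers the 4 arrays lie on 1 slide from 1 scan, so neither could be tested as a batch. The brightness of a probe also depends on its sequence, so levels are compared between arrays and never between genes.

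Some promoters of these genes hold matches to the sequence elements through which the responses are known to act, and some of these are shown here. RefSeq promoters (GRCr8, 250 bases before to 50 bases after the gene start) were at hand for 33 of the 41 genes. The ER stress response element (ERSE, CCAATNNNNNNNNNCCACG, both strands searched), known to be bound by ATF6 together with NF-Y, was found in 6 of the 33, against 0.06573% of all 33469 rat promoters of the same length and 0.1159% of the 14662 promoters of genes on the array. Hspa5, Hsp90b1, Dnajc3, Creld2 and Xbp1 are 5 of these 6 genes. In the stretches shown, the motif is in capitals, the flanks of up to 10 bases are in lower case, and each is written 5′ to 3′ on the strand of its gene. They lie at chr3:38452963-38453001 (+ strand) for Hspa5, chr15:102432524-102432562 (+ strand) for Dnajc3, chr7:121789229-121789267 (+ strand) for Creld2 and chr14:84604548-84604586 (+ strand) for Xbp1. The Creld2 motif reads on the opposite strand.
Hspa5: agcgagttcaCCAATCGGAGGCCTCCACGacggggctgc
Dnajc3: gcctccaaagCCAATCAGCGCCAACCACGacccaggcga
Creld2: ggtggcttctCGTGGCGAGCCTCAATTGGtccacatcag
Xbp1: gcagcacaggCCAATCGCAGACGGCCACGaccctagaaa

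ERSE-II (ATTGG and CCACG separated by 1 base, both strands searched) was found in 3 of the 33 promoters, those of Hyou1, Dnajb11 and Herpud1, against 0.05079% of all promoters and 0.08184% of those of genes on the array. The element for spliced XBP1, UPRE (TGACGTGG), searched likewise, was found in 2 of the 33, Bag3 and Hyou1, against 0.5946% and 0.7161%, and in Hyou1 it overlapped an ERSE-II match. Herpud1, at chr19:10614811-10614841 (- strand), shows this compact form. A CCAAT box alone is common, with 24 of 33 members (72.73%) and 37.49% of all promoters. TGATGNAAT, the C/EBP-ATF element, was found in none of the 33 windows and in 1.094% of all promoters.
Herpud1: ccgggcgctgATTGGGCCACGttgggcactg

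The heat shock element was searched as 3 alternating units, GAANNTTCNNGAA or TTCNNGAANNTTC, and was found in 5 of the 33 promoters: Hspa8, Hsph1, Dnaja1, Hspd1 and Hspe1. The share was 0.7978% over all promoters and 0.5524% over promoters of genes on the array. The stretches shown are from Hsph1, at chr12:10427322-10427354 (+ strand), and from the neighbouring genes Hspd1, at chr9:64084252-64084287 (- strand), and Hspe1, at chr9:64084252-64084289 (+ strand). Hspd1 and Hspe1 are read in opposite directions from 1 shared stretch, so they count as 2 promoters but hold the same motif. A match describes letters in a window and is not evidence of binding, and a window without one says nothing about the factor. The genes were chosen as genes of these responses, so the shares beside all promoters are descriptions and not a test.
Hsph1: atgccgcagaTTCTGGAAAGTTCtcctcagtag
Hspd1: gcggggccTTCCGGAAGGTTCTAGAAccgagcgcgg
Hspe1: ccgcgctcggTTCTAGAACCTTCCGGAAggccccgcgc

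**Figure D1:**
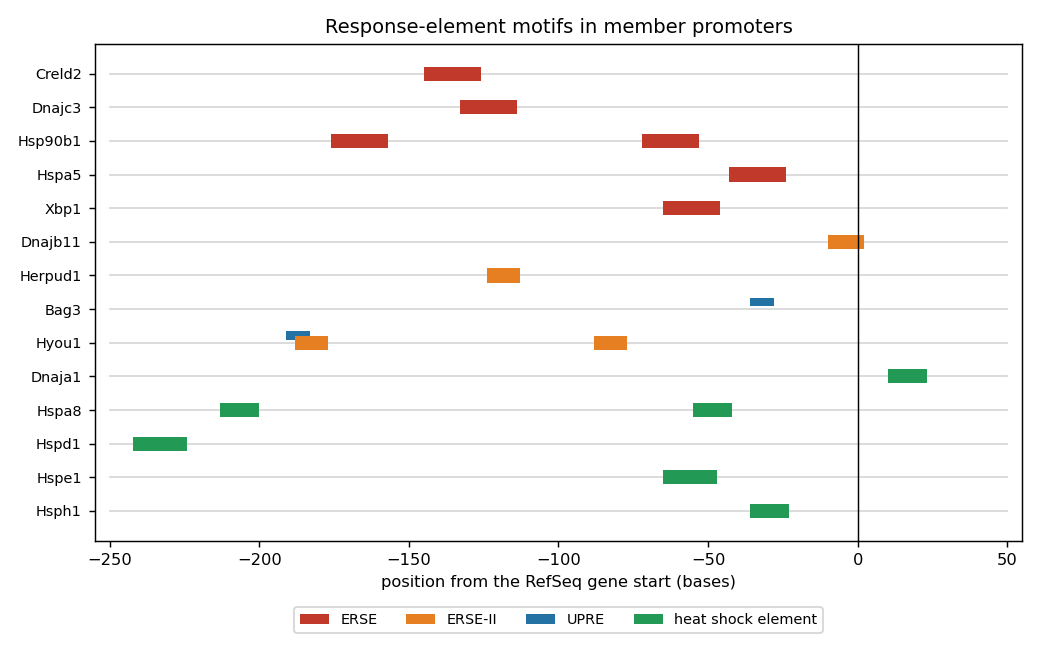
Position of each response-element match in the promoters of members, in bases from the RefSeq gene start (vertical line at 0); each bar is 1 match, coloured by motif, and grey lines mark the window searched. ERSE matches are drawn for 5 promoters, ERSE-II in 3, UPRE in 2 and the heat shock element in 5, with Hspd1 and Hspe1 sharing 1 stretch.

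Nearly all of the measured genes were detected. A gene counts as detected when at least 1 of its probes was called well above background by the scanner software on all 4 arrays: this held for 36 of 38 members (94.7%) and for 53.1% of all named genes. The dimmest detected probe of a member had a signal 9.01-fold over the 95th percentile of the negative control spots. Under the looser flag of positive and significant signal 37 of 38 members were called, against 66.9% of all named genes, and under limma's one-sided test against the negative controls 37 were called, against 69.8%.

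The 2 members that missed the detection call were Ern1 and Hspb8. Ern1, which encodes the kinase and nuclease that splices Xbp1, was well above background on 1 array, replicate 4, and passed limma's test against the negative controls with an adjusted p of 0.000629. Hspb8, a small heat shock protein that works with Bag3, was well above background on no array and its limma adjusted p was 0.311. In bulk RNA a low signal cannot tell fewer expressing cells from less RNA per cell.

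Among the cytosolic HSP70 and HSP110 genes, Hspa8, the constitutive HSC70, had levels of 8.32, 8.34, 8.33 and 8.21 on replicates 1 to 4, a mean of 8.30 ± 0.062 (SD, n = 4) over 4 probes. Its 4 values span 0.13 on the log2 scale, so replicates barely differ, although replicate 4 is the lowest. Hspa4, an HSP110 family nucleotide exchange factor, had 3.35, 3.72, 3.67 and 3.77 (mean 3.63 ± 0.19), with replicate 1 lowest. Hsph1, its heat-inducible relative, had -0.11, 0.28, 0.34 and 0.11 (mean 0.15 ± 0.20), again with replicate 1 lowest. Hspa1a, the stress-inducible HSP70, was measured at -0.77, -0.34, -0.76 and -0.91 (mean -0.70 ± 0.25), from 1 of its 2 probes. Hspa1a and Hspa1b are near-identical copies, and which of them this probe reads is uncertain.

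The J proteins and co-chaperones hand clients between HSP70 and HSP90. Dnaja1, a J protein that feeds clients to HSC70, had levels of 1.71, 2.60, 2.57 and 2.73 (mean 2.40 ± 0.46). Replicate 1 was 1.89-fold below the mean of the other 3 arrays, which lay close together. Bag3, a nucleotide exchange factor that directs clients to autophagy, had 5.26, 5.26, 5.01 and 4.57 (mean 5.03 ± 0.32), with replicate 4 lowest. St13, the HSP70-interacting protein Hip, had 2.91, 2.99, 2.07 and 1.48 (mean 2.36 ± 0.72), and Stip1, the HSP70 to HSP90 adaptor Hop, had 2.79, 2.39, 2.30 and 2.07 (mean 2.39 ± 0.30). For both St13 and Stip1 replicate 4 was lowest, and both probes lie beside an area of the array that was dim on replicates 3 and 4.

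The 2 cytosolic HSP90 genes differed in their spread. Hsp90aa1, the inducible form, had levels of 6.10, 6.84, 6.97 and 7.10 (mean 6.75 ± 0.45), while Hsp90ab1, the constitutive form, had 7.93, 7.68, 7.76 and 7.66 (mean 7.76 ± 0.13). Hsp90aa1 was lowest on replicate 1, 1.82-fold below the mean of the other arrays, and both of its probes were lower there. Hsp90ab1 was highest on replicate 1, by 0.24 over the mean of the other 3, but stood at -0.14 there under normexp background correction.

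In the mitochondrion, Hspa9 (mortalin), which pulls precursors through the inner membrane, had levels of 3.29, 4.28, 4.19 and 4.19 (mean 3.99 ± 0.47). Replicate 1 stood 1.90-fold below the mean of the other arrays, which lay close together. The chaperonin pair Hspd1 (HSP60) and Hspe1 (HSP10) folds imported proteins. Hspd1 had 4.13, 4.29, 4.35 and 4.44 (mean 4.30 ± 0.13) and Hspe1 had 6.42, 6.52, 6.70 and 6.63 (mean 6.57 ± 0.12), both with replicate 1 lowest, at -0.23 and -0.19 against the mean of the other arrays. These are means in which each probe weighs the same, whatever its number of spots. The Hspd1 probe with 10 spots was highest on replicate 1, at 0.096, and its other probes stood at -0.34 and -0.45. The Hspe1 probes, with 10 spots each, stood at -0.038 and -0.35.

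The small heat shock protein Hspb1, a holdase for misfolded clients, had levels of -1.51, -1.76, -1.57 and -1.68 (mean -1.63 ± 0.11). Hsf1, the master factor of the heat shock response, had 1.97, 1.83, 1.82 and 1.77 (mean 1.85 ± 0.084), and Hsf2 had 0.51, 0.51, 0.37 and 0.69 (mean 0.52 ± 0.13). None of these 3 genes differed between replicates by more than 0.32 on the log2 scale.

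**Figure D2:**
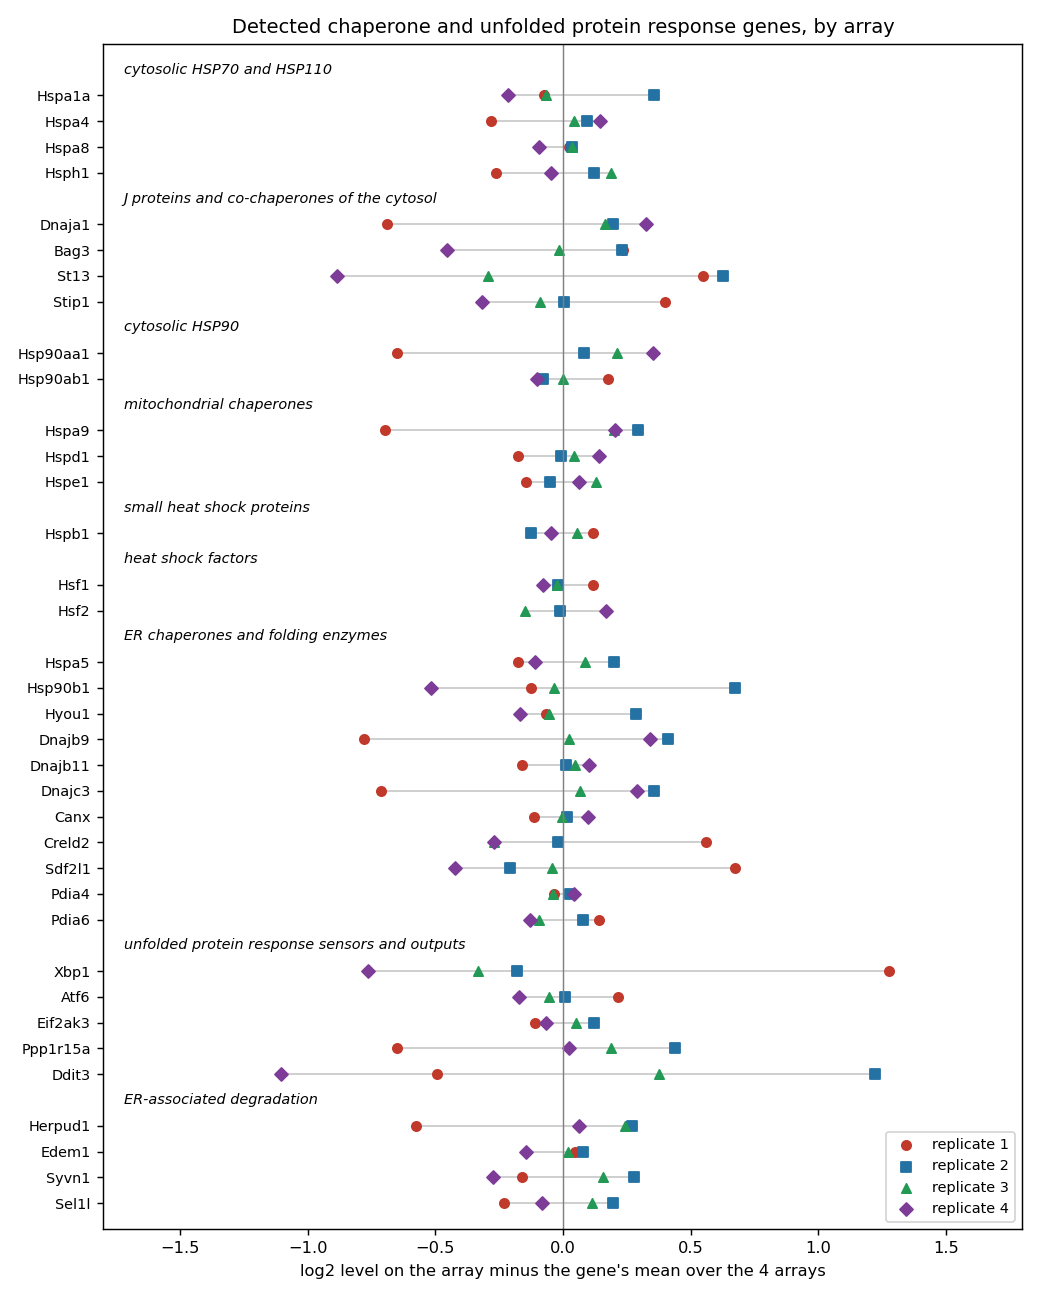
Level of each detected member on each of the 4 arrays minus the gene's own mean over the 4 arrays (log2), 1 point per array with its shape and colour giving the replicate, members grouped by role; the vertical line marks 0. Replicate 1 stands below the other points for Dnaja1, Hspa9, Dnajb9 and Dnajc3 and above them for Xbp1 and Sdf2l1, while the points of Hspa8, Pdia4 and Canx nearly coincide.

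The 11 ER chaperones and folding enzymes with a probe were all detected, and 8 of the 11 read lower on replicate 1 than on the other arrays on average (72.7%), beside 44.2% of all detected genes. Of the 8, Pdia4, Hyou1 and Canx stood near 0, at -0.047, -0.087 and -0.15. In the cytosol and nucleus 6 of the 13 detected members read lower there. Hspa5 (BiP), the ER HSP70 that holds the stress sensors in check, had levels of 6.09, 6.47, 6.35 and 6.16 (mean 6.27 ± 0.17). No array stands apart for it. Hyou1, an ER exchange factor for BiP, had 4.12, 4.47, 4.13 and 4.02 (mean 4.18 ± 0.20), Dnajb11, a BiP co-chaperone, 3.31, 3.48, 3.52 and 3.57 (mean 3.47 ± 0.11), and the lectin Canx 4.44, 4.57, 4.55 and 4.65 (mean 4.55 ± 0.087). The oxidoreductases of disulfide formation varied little, with Pdia4 at 1.85, 1.91, 1.85 and 1.93 (mean 1.89 ± 0.043, the smallest SD of any member) and Pdia6 at 5.18, 5.11, 4.94 and 4.91 (mean 5.03 ± 0.13).

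Among the remaining ER members the spread was larger, and replicate 1 went in both directions. Dnajb9 (ERdj4), a BiP co-chaperone that also restrains IRE1, had levels of -0.35, 0.84, 0.45 and 0.77 (mean 0.42 ± 0.54), and Dnajc3 (p58IPK), an inhibitor of PERK, had 2.54, 3.61, 3.32 and 3.54 (mean 3.25 ± 0.49). Replicate 1 was lowest for both, 2.05-fold and 1.93-fold below the mean of the other arrays. Creld2, an ER protein induced by stress, had 3.10, 2.52, 2.27 and 2.27 (mean 2.54 ± 0.39) and Sdf2l1, a partner of ERdj co-chaperones, had 6.51, 5.63, 5.79 and 5.41 (mean 5.83 ± 0.48). Both were highest on replicate 1, 1.68-fold and 1.86-fold above the mean of the other arrays. Hsp90b1 (GRP94), the ER HSP90, had 3.55, 4.35, 3.64 and 3.16 (mean 3.67 ± 0.50), and 1 of its 2 spots lies in the dim area.

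Of the sensors and outputs, Xbp1 varied most clearly on replicate 1. Its levels were 6.43, 4.98, 4.82 and 4.40 (mean 5.16 ± 0.89), so replicate 1 was 3.25-fold above the mean of the other arrays. The probe cannot be read here as the spliced or unspliced form. The 122 detected spots within 8 rows and columns of the Xbp1 spot had a median on replicate 1 of 0.11 over the mean of the other arrays, beside 1.70 for Xbp1 itself. On replicate 4 their median was -0.18 against the mean of replicates 1 and 2, beside -1.31 for Xbp1, whose mean holds its high replicate 1 value. Against replicate 2 alone their median on replicate 4 was -0.12, and Xbp1 read 4.40 beside 4.98. Ppp1r15a (GADD34), which restores translation after eIF2 phosphorylation, had 3.70, 4.79, 4.54 and 4.38 (mean 4.35 ± 0.47), with replicate 1 1.82-fold below the mean of the other arrays.

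Ddit3 (CHOP), the pro-apoptotic output of the PERK branch, had the largest SD of the 36 detected members, with levels of 3.46, 5.18, 4.33 and 2.85 (mean 3.96 ± 1.02). Its only spot lies in the dim area, where replicates 3 and 4 read low, so a change in its RNA and the dim area cannot be told apart on those arrays. On replicates 1 and 2, the arrays against which the dimming was measured, it read 3.46 and 5.18. Atf6 had 2.97, 2.76, 2.70 and 2.58 (mean 2.75 ± 0.16) over 2 probes and Eif2ak3 had 0.88, 1.11, 1.03 and 0.92 (mean 0.98 ± 0.11). Both varied little at the level of the gene, but the Atf6 probes differed. On replicate 1 they stood at 0.62, past 1.5-fold, and at -0.047 against the mean of the other arrays. The Eif2ak3 values come from 1 of its 2 probes, as do those of Canx and Syvn1.

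The 4 genes of ER-associated degradation retrotranslocate and ubiquitylate misfolded proteins. Herpud1, which organises the complex, had levels of 3.82, 4.67, 4.64 and 4.46 (mean 4.40 ± 0.40), with replicate 1 1.70-fold below the mean of the other arrays. Edem1, which trims mannose from clients, had 2.23, 2.26, 2.20 and 2.03 (mean 2.18 ± 0.099) over 3 probes. Syvn1 (HRD1), the ubiquitin ligase, had 3.73, 4.17, 4.05 and 3.62 (mean 3.89 ± 0.26), and Sel1l, its partner, had 0.12, 0.55, 0.47 and 0.27 (mean 0.35 ± 0.19). The spot read for Syvn1 and that of 1 Edem1 probe lie next to the dim area. On replicate 4 they stood at -0.33 and -0.70 against the mean of replicates 1 and 2. Herpud1 was the only one of the 4 with an array 1.5-fold from the mean of the others.

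Across the 36 detected members the SD between arrays ranged from 0.043 for Pdia4 to 1.02 for Ddit3, with a median of 0.20, beside 0.24 for all detected named genes. The SD of 17 of the 36 members was above the all-gene median. A range of more than 2-fold between arrays occurred in 10 members and in 14.2% of all detected genes. Without replicate 1 the median SD fell to 0.13 for the members and 0.15 for all genes.

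**Figure D3:**
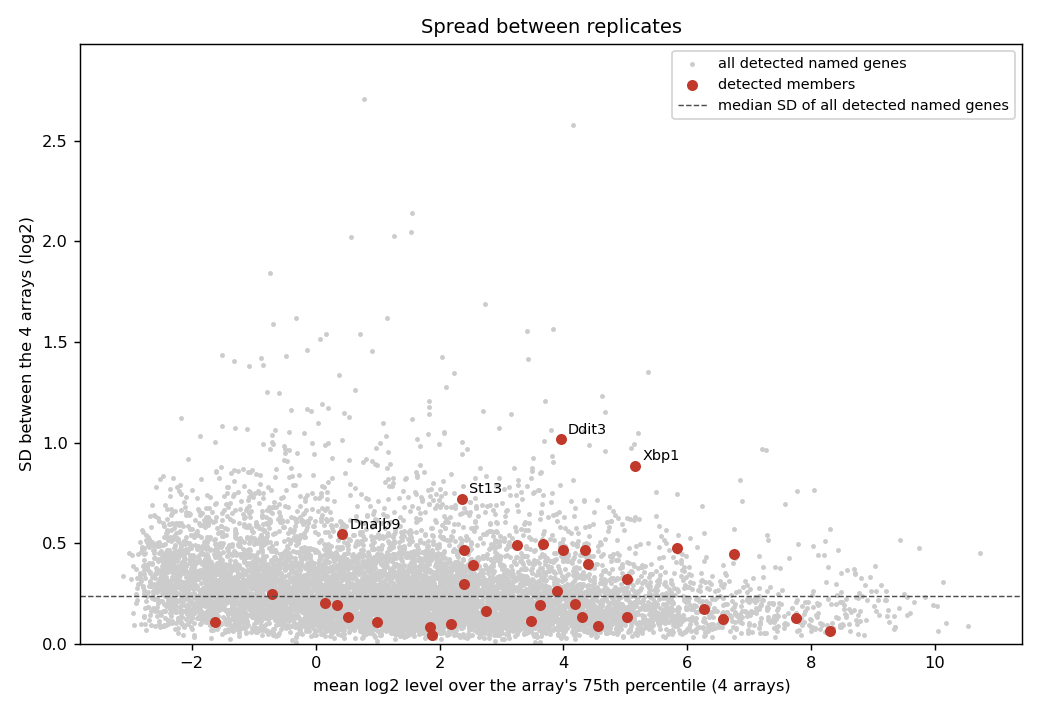
SD between the 4 arrays (log2) against the mean level (log2 signal over the array's 75th percentile) for every detected named gene (grey) and the 36 detected members (red); the dashed line is the median SD of all detected named genes. The members with the largest SD are named, from Dnajb9 to Ddit3 at 1.02, and 17 of the 36 members lie above the line.

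A fold of 1.5 between an array and the mean of the other 3 was used to count departures, with no test, since each array is 1 sample. On replicate 1, 8 of 36 members (22.2%) were lower by at least that much, beside 10.3% of all detected genes, and 4 (11.1%) were higher, beside 14.5%. The 8 were Dnaja1, Hsp90aa1, Hspa9, Dnajb9, Dnajc3, Ppp1r15a, Ddit3 and Herpud1. The 4 were St13, Creld2, Sdf2l1 and Xbp1. Of these 8 and 4, all but Hsp90aa1, Hspa9 and Sdf2l1 were read from 1 spot per array. For them the spread between repeat spots is not known. The members with a probe of 10 spots, Hspa5, Hspb1, Hspd1, Hspe1 and Pdia6, all stayed within 1.5-fold. For St13, replicate 1 was close to replicate 2, at 2.91 and 2.99, and the low values were those of replicates 3 and 4, beside the dim area. The median member deviated by -0.11 from its own mean on replicate 1, while the median of all detected genes deviated by 0.053.

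Known XBP1 and ATF6 targets differed in direction on replicate 1. Sdf2l1 and Creld2 read higher there, as did Xbp1, and Dnajb9, Dnajc3 and Herpud1 read lower. Under normexp Creld2 stood at 0.18 and Dnajb9 at -0.53, both within 1.5-fold, and 2 members in place of 4 were higher by that much. Other genes of the ER response stood nearer to 0, with Dnajb11 at -0.21, Hyou1 at -0.087, Pdia4 at -0.047, Edem1 at 0.061 and Pdia6 at 0.19. Among the 5 genes named with an ERSE, Xbp1 and Creld2 were higher by 1.70 and 0.75 on the log2 scale, Dnajc3 stood at -0.95, and Hspa5 and Hsp90b1 had -0.23 and -0.17. The value of Hsp90b1 includes its spot in the dim area and was -0.78 without it, past 1.5-fold.

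For the other arrays the counts were as follows. On replicate 2, 3 members were higher by 1.5-fold (St13, Hsp90b1 and Ddit3), beside 3.5% of all detected genes, and none was lower, beside 3.69%. All 3 have a spot in or next to the dim area, and its part in these counts was not tested. The Hsp90b1 spot outside it read 3.45, 4.25, 4.14 and 4.33 on replicates 1 to 4. On replicates 1 and 2, Ddit3 read 3.46 and 5.18, and St13 read 2.91 and 2.99. On replicate 3 no member passed in either direction, beside 1.27% higher and 1.22% lower. On replicate 4 none was higher, beside 1.88%, and 5 were lower (13.9%), beside 5.59%. The 5 were Bag3, St13, Hsp90b1, Xbp1 and Ddit3. Of these, Ddit3 and 1 of 2 spots of Hsp90b1 lie in the dim area and the spot of St13 lies next to it. For Xbp1 the mean of the other arrays holds its high replicate 1 value of 6.43, and replicate 4 read 4.40 beside 4.98 on replicate 2. Bag3 has 1 of its 2 spots in the margin, but its spot far from the area was as low on replicate 4, at -0.75 against the mean of replicates 1 and 2, as the one in the margin, at -0.62.

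Replicate 1 differed from the others in measures other than these genes: it had the lowest 75th percentile signal and the smallest share of spots well above background. Cell markers also differed there. Of the 10 detected macrophage markers, 4 were higher by 1.5-fold and none lower, beside 14.5% and 10.3% of all detected genes. The 4 were Mrc1 at 1.36, Pparg at 0.94, Fcer1g at 0.87 and Csf1r at 0.69 against the mean of the other arrays. Summed over the 10, the log2 level was 10.71 on replicate 1 and 10.34 to 10.41 on the others. This sum is set mostly by the brightest probes, those of Lyz2, Fcer1g and Tyrobp. Of the 2 endothelial markers, Pecam1, which leukocytes also express, stood at 1.34 and Cdh5 at -0.0087, and their summed log2 level was 1.5 on replicate 1 and 0.24 to 0.74 on the others. Replicate 1 was the array farthest from the mean of the others in 22 of 36 members and in 54.6% of all detected genes. The part of these differences in the values above was not tested, and with 1 group the array and the sample cannot be told apart.

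Several probes read the same gene in part differently. Of the 9 members with several detected probes, 5 (Atf6, Edem1, Hsf1, Hspa8 and Hspd1) had probes on opposite sides of 0 when replicate 1 was set against the mean of the other arrays. The 4 probes of Hspa8 ran from -0.55 to 0.37, so the small SD of its mean comes from probes that differ in direction. Both probes of Hspa9 were lower, at -1.26 and -0.60, as were both of Hsp90aa1, at -1.14 and -0.59. Repeat spots of 1 probe on an array give the error of a single reading. The probe of Pdia6, with 10 spots, had an SD between spots of 0.086 and between arrays of 0.13, and that of Hspb1, also with 10 spots, had 0.44 and 0.11. The SD between arrays is that of the mean over a probe's spots, whose error is smaller than that of a single spot.

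**Figure D4:**
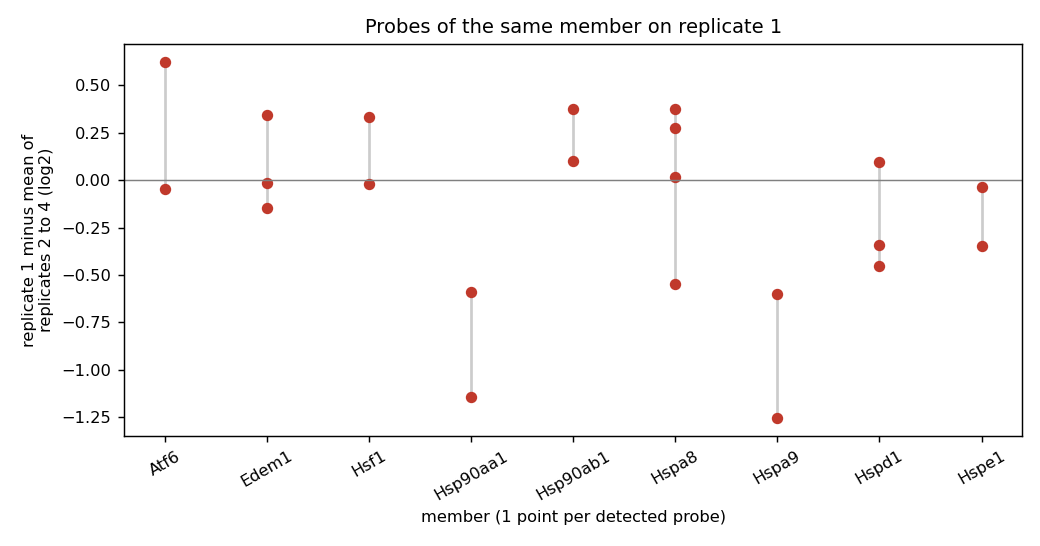
Replicate 1 minus the mean of the other 3 arrays (log2) for each detected probe of the 9 members with several detected probes, 1 point per probe; the line marks 0. Both probes of Hspa9 and of Hsp90aa1 are below 0, while those of Hspa8, Hspd1, Edem1, Atf6 and Hsf1 stand on both sides.

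An area of the array of 51 rows by 16 columns was dim on replicates 3 and 4. Its 311 spots of detected probes had a median on replicate 4 of -2.11 against the mean of replicates 1 and 2, beside -0.59 in a margin of 10 spots around it and -0.084 elsewhere. On replicate 3 the medians were -0.79, -0.19 and 0.0097. Ddit3 has its only spot there. Hsp90b1 has 1 spot inside and 1 outside, and the comparison shows the size of the loss: the outside spot read 3.45, 4.25, 4.14 and 4.33 and the inside spot 3.65, 4.44, 3.13 and 1.98. For Hsp90b1, replicate 1 stood at -0.78 against the mean of the other arrays when spots in the area were left out. Hspe1 has 1 of its 10 spots of 1 probe there, and the scanner software had flagged that spot as an outlier on replicates 3 and 4, so it was left out on those.

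**Figure D5:**
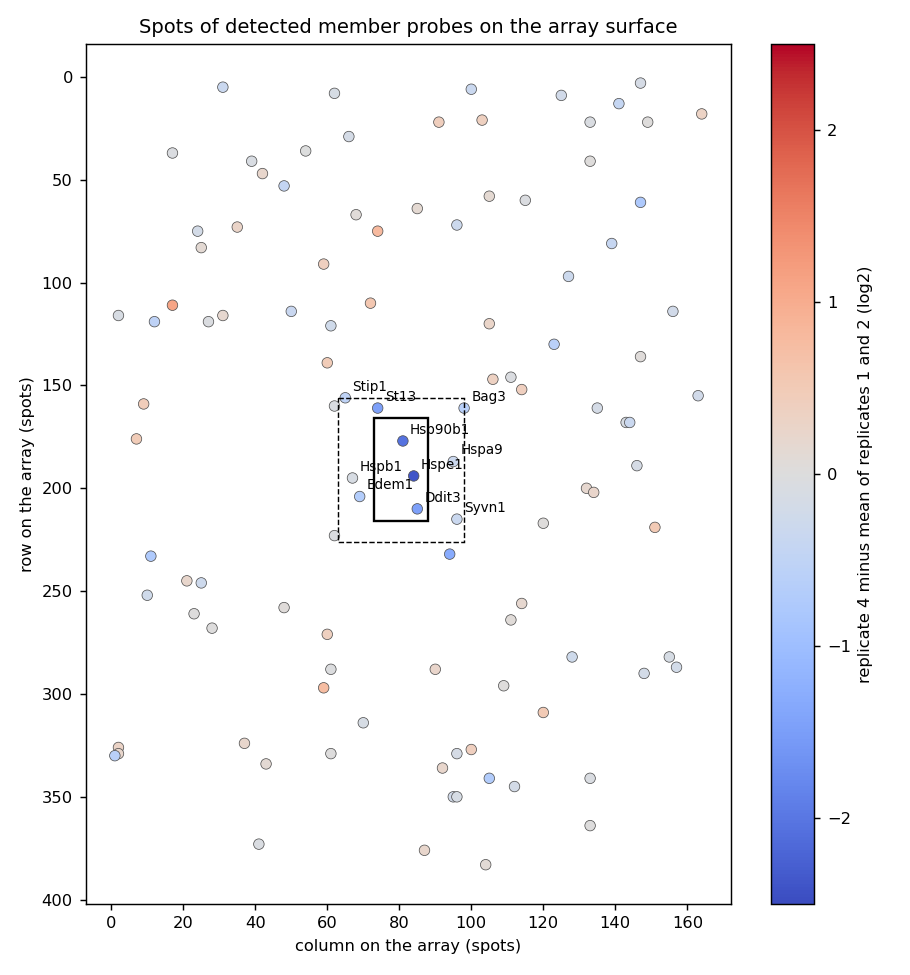
Position on the array (row against column) of the spots of detected member probes, coloured by replicate 4 minus the mean of replicates 1 and 2 (log2); the inner box is the dim area and the outer box its margin of 10 spots. The spots of Ddit3, of Hspe1 and 1 of Hsp90b1 lie inside the inner box and are lower on replicate 4, at -1.47, -2.39 and -2.06.

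Beside the members stand 68 other chaperone and unfolded protein response genes, of which 64 had a probe. Of the 64, 59 (92.2%) were detected, beside 53.1% of all named genes. The 5 not detected were Hspa12a, Mbtps2, Ero1b and Hsf4, well above background on no array, and Ern2, the gut form of the IRE1 gene, on 1 array. On replicate 1, 10 of the 59 were lower by 1.5-fold (16.9%) and 3 higher (5.08%), beside 10.3% and 14.5% of all detected genes. The 3 with the largest SD were Erlec1, an ER lectin, Trib3, a pseudokinase induced by ATF4 and CHOP, and Bag1, an HSP70 exchange factor. Trib3 had 0.20, 2.76, 2.78 and 2.71, so replicate 1 stood at -2.55 against the mean of the other arrays. Erlec1 had 0.51, 0.14, -1.67 and -2.35, with its spot in the dim area, and Bag1 had 3.87, 4.11, 3.66 and 2.28, with its spot in the margin.

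Atf4, the transcription factor upstream of Ddit3 and Trib3, and 3 genes that it is known to induce (Atf3, Asns and Chac1) were picked out after their values were seen. Atf4 had levels of 5.22, 6.65, 6.51 and 6.59, with replicate 1 at -1.37 against the mean of the other arrays. Atf3 had 2.22, 3.14, 2.83 and 2.84, and replicate 1 was again lowest. Asns, asparagine synthetase, stood at -0.26 and Chac1, which degrades glutathione, at -0.52, both within 1.5-fold. These 4 genes do not stand for the other pathway genes. Of the 59 detected, 28 had a positive difference on replicate 1 and 31 a negative one. The 3 that passed 1.5-fold upwards were Hspb6 at 1.29, Cryab at 0.65 and Erlec1, whose spot lies in the dim area. Atf4, Atf3 and Trib3 are among the 10 that passed it downwards.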

How the data were processed

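Levels of gene expression were measured on 4 single-colour Agilent arrays, 1 per sample, all of 1 group. The deposited scanner tables hold the processed intensity of every spot, made by the authors with Agilent Feature Extraction 11.0.1.1, per the submitters' processing notes. Each array has 62976 spots, 4259 of them controls. Control spots and spots flagged as outliers were left out, spots of 1 probe were averaged on the log2 scale, and each array's 75th percentile over the other probes was subtracted. The files carry no gene symbols, so probes were named by accession through RefSeq (GRCr8), which named 20983 of the 45280 probes used, for 16500 genes; 318 probes were left out. Detected probes of a gene were averaged.

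The members, the lists of other pathway genes and of markers, the motifs and the alternatives were chosen with earlier results of these data known. Every member on the array is named. Of the other pathway genes, those not detected and the 3 with the largest SD are named by rule. Atf4, Atf3, Asns, Chac1, Cryab, Hspb6, Tcp1, Dnaja2 and Cct7 were added after their values were seen. The limma test (limma 3.58.1, R 4.3.3) is one-sided, fitted on all probes, against each array's 95th percentile of negative control spots, with Benjamini-Hochberg adjustment over all probes and a threshold of 0.05. It was tested on simulated data. The number of arrays limits the precision. All comparisons between arrays are descriptions, with 1 sample each. The alternatives tried were normexp background correction (offset 50, on median signals), quantile normalization, the percentile over detected probes, other detection calls, no filter, the median of probes, the dim area left out with and without a margin of 10 spots, and each replicate left out. The margin alternative and the 1.5-fold counts were added after seeing the data, as was the look at the spots around Xbp1. The ERSE match of 1 member is counted but not reported here. Promoter coordinates are those of RefSeq; probe coordinates were not used.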

Additional observations from a re-analysis of the deposited data

Results flagged for a closer look

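In a group of 4 arrays, a value is set apart when its gap to the nearest other value, divided by the range of all 4, exceeds Dixon's critical value for 4 samples, and chance sets apart about 1 in 20 groups. Among the 36 detected members 3 met this (8.33%), beside 8.42% of all detected genes. Hspa8 was lowest on replicate 4, at 8.21 against 8.32 to 8.34 on the others, a gap small in size. Dnaja1 was lowest on replicate 1, at 1.71 against 2.57 to 2.73. Hspa9 was lowest on replicate 1, at 3.29 against 4.19 to 4.28. Of the other pathway genes, Trib3 was lowest on replicate 1, at 0.20 against 2.71 to 2.78. So was Atf4, which was chosen after its values were seen, at 5.22 against 6.51 to 6.65. Others of that list also met the rule, in both directions. Hspb6 was highest on replicate 1, at -0.38 against -1.78 to -1.58, and so was Tcp1, at 6.03 against 5.90 to 5.92. Dnaja2 was lowest on replicate 1, at 2.99 against 3.55 to 3.65, and Cct7 on replicate 4, at 5.69 against 5.77 to 5.78. A share over that list is not given.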

How the results depend on the processing

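No paired analysis was possible because all 4 samples belong to 1 group. The number of detected members was 36 with each replicate left out, 35 without the dim area, 32 without the area and its margin (an alternative chosen after seeing the data) and 32 when all probes of a gene had to be detected. Ddit3 could not be measured without the area, nor St13, Stip1 and Ddit3 without the area and margin. Syvn1 kept only its dimmer probe without the area and margin, and was not detected. The median SD of the members was 0.26 under normexp, and between 0.128 and 0.235 with each replicate left out, the lowest without replicate 1. The median deviation on replicate 4 was 0.025 under normexp, against -0.079. The number of members at least 1.5-fold higher on replicate 1 was 2 under normexp, against 4, because Creld2 and St13 dropped to 0.18 and 0.39. The number lower was 7 to 8 under every alternative run, with Dnajb9 at -0.53 under normexp. Leaving out the dim area removed Ddit3 from the lower members and added Hsp90b1. The small replicate 1 differences of Hspa8, Bag3, Hsp90ab1, Eif2ak3 and Edem1 changed sign under normexp, as did that of Edem1 under scaling on detected probes and of Hspa8 under that and quantile scaling. Scaling on detected probes shifted all levels by -3.08, and normexp moved the level of 30 of the 36 members by more than its SD. The level of Edem1 was 3.32 without the area and margin, where 1 of its probes dropped out, and that of Syvn1 was 0.78 without replicate 1, where its second, dimmer probe also counts as detected. The 4 arrays of 1 group limit every spread given.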
